A study of Mus musculus with 22 samples.

Results

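The comparison described here is between the spinal cord of wild-type (WT) mice 6 weeks and 3 days after a contusion, and all genes on the array were members of it. The values were the deposited log2 ratios of 2-colour arrays, each of which set RNA of 1 mouse (Cy5) against RNA of another (Cy3). Of 22 arrays in the series, 9 held a WT mouse of 3 days or 6 weeks under certain labels, and 1 of these held both groups directly. Each group had 3 mice. The mice were females of 3 to 4 months that received a moderate contusion of the thoracic cord, and the RNA came from a segment centred on the lesion. WT mice were littermates of IκBα-dn mice, which carry a dominant-negative inhibitor of NF-κB under the GFAP promoter and so in astrocytes. The other groups, used to connect mice and to give the naive level, were WT naive, WT 3 weeks, and IκBα-dn naive, 3 days, 3 weeks and 6 weeks. A further array, whose title and description disagree on the time point of its Cy3 mouse, did not enter the fit, which left 21 arrays of 23 mice and 2 WT mice at 3 weeks.

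In the days after a contusion, blood-borne neutrophils and monocytes enter the cord, microglia and macrophages become phagocytic, and glial, vascular and immune cells divide. In the weeks that follow, a border of reactive astrocytes and a fibrotic core form, phagocytes take up myelin lipid, and lymphocytes collect in the lesion. The segment holds all of these cells together, so a lower value can come from fewer cells of a type or from less RNA in each, and these cannot be told apart here. The ratios carry no levels, so the labelled tissue could not be checked by the presence of markers. Of 15 defining markers of astrocytes, myelin, neurons and microglia, 14 were measured, 0 were called in limma, and their log2 differences lay between −0.57 (Snap25) and 0.41 (Tmem119). Without 3 days mouse 2, a mouse described below, the astrocyte marker Aldh1l1 was called lower (−0.76, limma adjusted p = 0.0105, against −0.52 on all mice).

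A linear model in limma gave the difference from all 21 arrays, with 1 dye term and an allowance for mice that were hybridised more than once, and a probe was called at a Benjamini-Hochberg adjusted p under 0.05 over 43379 probes. To show the spread between mice, the difference was also computed within each of 3 pairs of mice that arrays connect to each other, with the dye effect taken out. Pair 1 was 3 days mouse 1 with 6 weeks mouse 3 (4 arrays), pair 2 was 3 days mouse 2 with 6 weeks mouse 1 (8 arrays), and pair 3 was 3 days mouse 3 with 6 weeks mouse 2 (4 arrays, the direct one included). The error variances of these values are 4, 2 and 0.75 times that of a single array, so pair 3 is the most precise. Array SDs ran from 0.37 to 0.74 and array medians from −0.08 to 0.05. The direction (Cy5 over Cy3) was checked on the array of WT 3 days mouse 1 over WT naive mouse 1, where 36 of 37 macrophage and activated myeloid genes were higher at 3 days (median 2.07).

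One mouse of the 3 days group stood apart. The macrophage list had a median of 2.07 above naive mouse 1 in 3 days mouse 1, but 0.14 above naive mouse 3 in 3 days mouse 2. On the array that set it directly against IκBα-dn 3 days mouse 1, 3 days mouse 2 was lower by a median of −1.30 for the macrophage list, −0.88 for reactive astrocyte genes and −0.72 for cell cycle genes. On the array that set WT 3 weeks mouse 2 over it, the macrophage list was 0.86 higher at 3 weeks. WT 3 days mouse 3 and IκBα-dn 3 days mouse 3, on their shared array, differed by −0.03 for the same list. In the medians of single mice, 3 days mouse 2 lay near its naive mouse for the macrophage and reactive astrocyte lists, while both 6 weeks mice that could be set against naive lay above it. A cause for this was not tested. List medians and calls below are therefore given with and without that mouse. List values against naive and list counts of differences between genotypes are on all mice. Some single genes called only without 3 days mouse 2 are given by that value alone. On all mice those genes were not called. Without that mouse the 3 days group has 2 mice. The mouse was set apart by its low macrophage, reactive astrocyte and cell cycle values. Calls and p-values of those genes without it follow in part from that choice and are no separate support for a decrease. The same limit holds for other lists that were low in that mouse. Against their own naive mice, 3 days mice 2 and 1 had medians of −0.08 and 0.78 for lysosomal and 0.24 and 1.13 for complement genes. They had −0.12 and 0.77 for immediate early, −0.11 and 0.80 for interleukin and TNF family, and 0.02 and 0.66 for NF-κB and Toll-like receptor genes.

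**Figure D1:**
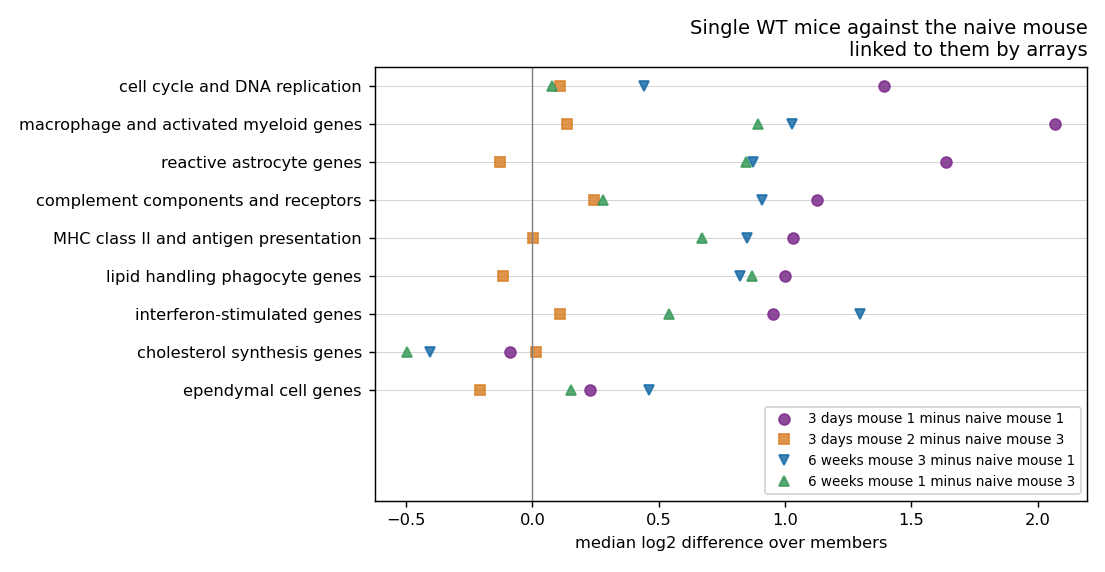
Median log2 difference over list members (horizontal axis) of single WT mice against the naive mouse that arrays connect them to, for 9 gene lists. In 3 days mouse 2 (squares) the macrophage list stands at 0.14 and the reactive astrocyte list at −0.13, against 2.07 and 1.64 in 3 days mouse 1 (circles).

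Of 43379 probes, 48 (0.111%) were called between 3 days and 6 weeks, 16 higher at 6 weeks (0.0369%) and 32 lower (0.0738%), and 4821 had an unadjusted p under 0.05. The median SE of a log2 difference was 0.19. When 3 days mouse 2 was left out, 828 probes (1.91%) were called, 178 higher (0.41%) and 650 lower (1.5%), among them all 48. The count was 26 without 3 days mouse 1, 0 without 3 days mouse 3, 1 without 6 weeks mouse 1, 0 without 6 weeks mouse 2, 18 without 6 weeks mouse 3 and 0 without the direct array. Of 290 probes that differed over 2-fold, 278 were not called. No probe was called between 3 weeks and 3 days or between 6 weeks and 3 weeks (0 in limma for each, with 3629 and 1470 at an unadjusted p under 0.05), so the text gives the 3 weeks values without a verb of change. Counted by gene, with the lowest probe number standing for each of 19087 genes, 14 were called higher and 14 lower. Without 3 days mouse 2, 0.424% of these genes were called higher and 1.69% lower.

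Among the genes that rose from 3 days to 6 weeks were the chemokine receptor gene Cxcr6, the T cell receptor subunit gene Cd3d, Mamdc2, Ecrg4 and Apoc4. The 12 largest increases ran from 1.73 (Apoc4) to 0.76 (Gm16124) on the log2 scale, and each was positive in all 3 pairs. Naming required the sign of the fit in all 3 pairs, which all 14 called increases and 14 called decreases met. The pairs use arrays of the same fit, so they are no separate support. Cxcr6, the receptor for Cxcl16 on T cells, was 1.30, 1.48 and 1.58 higher at 6 weeks in pairs 1, 2 and 3. The pairs lay close together, and the fitted difference was 1.47 ± 0.22 (SE, n = 3 mice a group; limma adjusted p = 0.0258), or 2.77-fold. Cd3d, part of the CD3 complex of T cells, was 0.84, 1.41 and 0.86 higher in the pairs, with a fit of 0.93 ± 0.17 (adjusted p = 0.0488 in limma). Against naive, Cxcr6 stood at 0.20 at 3 days and 1.67 at 6 weeks, and Cd3d at −0.13 and 0.79, so both were near naive at 3 days and above it at 6 weeks.

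Mamdc2, which has MAM domains and is found in extracellular matrix, had pair values of 1.29, 1.33 and 1.61 and a fit of 1.38 ± 0.18 (limma adjusted p = 0.0154). Ecrg4, a secreted peptide precursor known from the choroid plexus, had pair values of 1.08, 0.83 and 1.35 and a fit of 1.13 ± 0.15 (limma adjusted p = 0.0147). Apoc4, an apolipoprotein, showed the largest fitted increase, 1.73 ± 0.32, with more spread between its pairs (0.91, 1.89 and 2.28). Ucma, a Gla-rich protein of cartilage, had pair values of 1.22, 0.83 and 2.10, and Bglap, osteocalcin of bone, 1.17, 0.79 and 1.66. In both, pair 3 was highest and pair 2 lowest. Plac9a, a small secreted protein, was 1.39 ± 0.22 higher, and Cfap161, a protein of motile cilia, 1.12 ± 0.17. The remaining named increases were the homeobox gene Duxbl1 (0.84 ± 0.13) and the predicted genes Gm45351 (0.82 ± 0.12) and Gm16124 (0.76 ± 0.14). Called but smaller were Prelp, a leucine-rich matrix protein (0.63 ± 0.11), and Zranb1, a deubiquitinase (0.57 ± 0.10). Another Prelp probe was not called, at −0.02. At 6 weeks all 12 named increases lay above naive, and 8 of them were called against naive, where 0.724% of probes were called, 0.632% higher and 0.0922% lower. At 3 days 10 lay below naive. The naive comparisons share mice with the one that chose these genes. The choice favours such positions, so these counts are no separate support. All 24 named increases and decreases were also called in the fit without 3 days mouse 2, with increases from 0.76 (Cd3d) to 1.81 (Ucma) and decreases from −2.52 (Colec10) to −0.51 (Sc5d).

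The genes that fell were led by Colec10, a secreted lectin of the collectin family. It was −1.39, −1.99 and −2.26 in pairs 1, 2 and 3, and the fitted decrease was −2.17 ± 0.34 (limma adjusted p = 0.0269), or 4.51-fold. Against their connected naive mice, Colec10 was 3.48 higher in 3 days mouse 1 and 2.07 in 3 days mouse 2, and 2.09 higher in 6 weeks mouse 3 and 0.09 in 6 weeks mouse 1. The values of 3 days mouse 2 and 6 weeks mouse 3 were nearly the same. They are set against different naive mice, so whether the groups overlap cannot be read from them. The fitted difference from naive was 2.98 at 3 days and 0.81 at 6 weeks (limma adjusted p = 0.38 for the latter), and the 3 weeks value was 3.61.

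Tatdn2, a predicted deoxyribonuclease, was −0.91, −1.26 and −1.54 in the pairs, and its fit was −1.36 ± 0.17 (limma adjusted p = 0.0147). It was 0.37 above naive at 3 days and −0.99 against naive at 6 weeks, and the 6 weeks difference from naive was called (adjusted p = 0.0155, limma). Casq2, a calcium-binding protein of the sarcoplasmic reticulum, had pair values of −1.13, −0.74 and −1.10, and Cenpu, a centromere protein, −0.45, −0.48 and −1.07. Both were above naive at 3 days (0.80 and 0.74) and at −0.18 and −0.04 at 6 weeks. The other 8 named decreases were smaller, from −0.72 to −0.55, with pair values between −0.91 and −0.49. They were Hsd17b12, a reductase of fatty acid elongation, Eps8 and Rac1, which act on the actin cytoskeleton, Ywhab, a 14-3-3 protein, Ppp2cb, a catalytic subunit of protein phosphatase 2A, the neutral amino acid transporter Slc1a4, the sterol desaturase Sc5d, and BC005537. All 12 decreases lay above naive at 3 days, and 6 of them were called there, where 1.98% of probes were called, 1.8% higher and 0.182% lower. At 6 weeks 11 lay below naive, and here too the genes were chosen on values of the same mice. Of these 12 genes, 9 had further probes on the array that were not called, and in Hsd17b12 and BC005537 another probe had the opposite sign (0.27 and 0.13). The smaller called decreases were Adamts1 and Blmh, a cysteine protease (−0.54 ± 0.09).

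**Figure D2:**
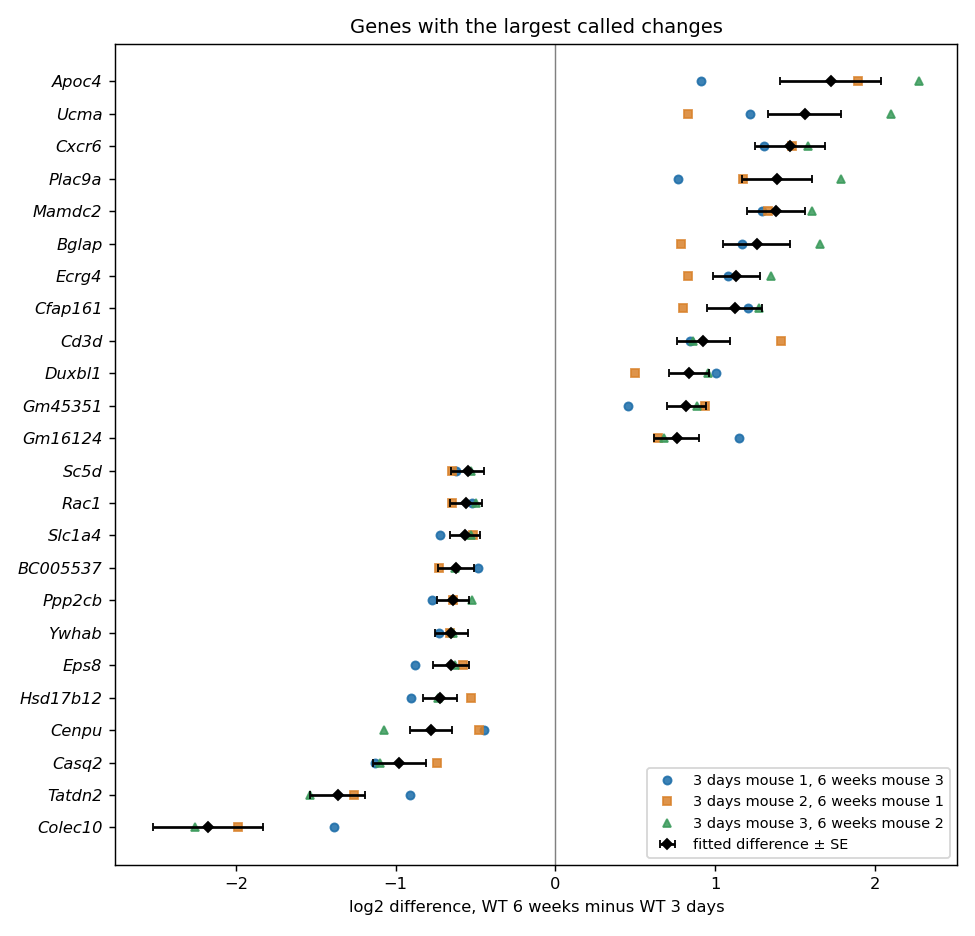
Log2 difference, WT 6 weeks minus WT 3 days (horizontal axis), for the 12 largest called increases and 12 largest called decreases. Diamonds and bars are the fit and its SE, and circles, squares and triangles are the 3 connected pairs of mice. Every pair has the sign of the fit, as the choice of these genes required, from Apoc4 at 1.73 to Colec10 at −2.17.

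**Figure D3:**
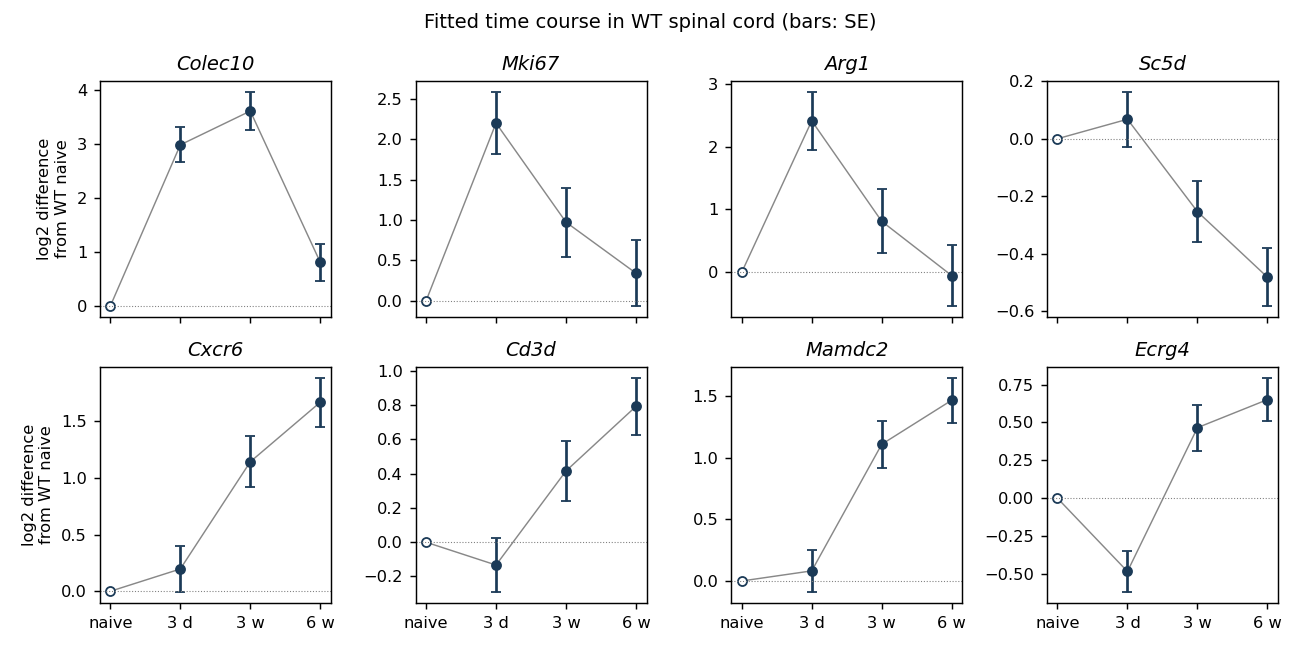
Fitted log2 difference from WT naive (vertical axis, with a scale of its own for each gene) at 3 days, 3 weeks and 6 weeks in WT mice. Open points are naive, set at 0, and bars are SE. Mki67 and Arg1 stand at 2.20 and 2.41 at 3 days and at 0.34 and −0.05 at 6 weeks, a difference that did not pass the test on all mice, and Cxcr6 and Mamdc2 at 0.20 and 0.08 at 3 days and 1.67 and 1.46 at 6 weeks.

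Genes of cell division had a lower median at 6 weeks than at 3 days in pairs 1 and 3 and no such shift in pair 2. Of 60 cell cycle and DNA replication genes, 58 were measured and 0 were called in limma. Of these, 35 were lower and 0 higher at an unadjusted p under 0.05, where 6.85% of all genes were lower and 4.25% higher. The median was −0.65, beside −0.01 over all genes, and the pair medians were −0.95, −0.01 and −0.76. Pair 2, which holds 3 days mouse 2, was near 0 and apart from the other pairs. In all 3 pairs 28 of the 58 were lower, against a background of 16% of all genes. With 3 days mouse 2 left out the median was −0.94, and 28 were called lower and 0 higher, where 1.69% of all genes were called lower. The list stood at a median of 0.87 above naive at 3 days and 0.20 at 6 weeks. The 3 days value includes mouse 2, at 0.11 against its naive mouse, beside 1.39 in mouse 1. On the direct array the list median was −0.72.

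Mki67, the gene of the proliferation antigen Ki-67, had pair values of −2.13, −0.22 and −2.77, and its fit of −1.85 ± 0.41 did not pass (limma adjusted p = 0.0791). Leaving out 3 days mouse 2 gave −2.65 ± 0.17 (limma adjusted p = 4.15e-06), in a fit that drops the mouse with low cell cycle values. Cdk1, the kinase that drives entry into mitosis, was −1.38, −0.60 and −1.82 in the pairs. Its fit was −1.37 ± 0.33, with an adjusted p of 0.105 from limma on all mice and 0.000277 without 3 days mouse 2. Another Cdk1 probe had the opposite sign (0.21). Ncaph, a condensin subunit, was −0.56, −0.49 and −1.89, and Foxm1, a transcription factor of mitotic genes, −1.13, −0.17 and −1.33. In each of these 4 genes pair 2 gave the smallest decrease. On all mice Ncaph and Foxm1 were −1.26 and −0.95 and not called, and without 3 days mouse 2 they were −1.59 and −1.31 and called. The kinases Aurkb and Bub1 and the kinesin Kif20a, called without 3 days mouse 2, had fitted differences of −3.11, −2.97 and −2.18 there and of −1.92, −1.80 and −1.63 on all mice. In pair 2, Aurkb and Bub1 were 0.27 and 0.50 and Kif20a −0.82.

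The promoters of the cell cycle genes with the smallest p are shown because the list was lower as a group in pairs 1 and 3. Of 4 such genes, 3 (Mki67, Cdk1 and Ncaph) had an entry in the RefSeq promoter table (GRCm38.p6), which gives windows of 300 bases around the gene start. All 3 lie on the minus strand and are written 5′ to 3′. Capitals mark CCAAT and TTTGAA on either strand (ATTGG and TTCAAA on the other), the letters bound by NF-Y and of the cell cycle homology region.
Mki67 (chr7:135716330-135716629, minus strand): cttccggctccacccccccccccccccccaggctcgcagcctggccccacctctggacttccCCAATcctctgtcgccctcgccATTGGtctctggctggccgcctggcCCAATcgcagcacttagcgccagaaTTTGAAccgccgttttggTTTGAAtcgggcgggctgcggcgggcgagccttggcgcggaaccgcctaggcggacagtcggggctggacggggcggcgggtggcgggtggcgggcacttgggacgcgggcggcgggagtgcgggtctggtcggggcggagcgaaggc
Cdk1 (chr10:69352863-69353162, minus strand): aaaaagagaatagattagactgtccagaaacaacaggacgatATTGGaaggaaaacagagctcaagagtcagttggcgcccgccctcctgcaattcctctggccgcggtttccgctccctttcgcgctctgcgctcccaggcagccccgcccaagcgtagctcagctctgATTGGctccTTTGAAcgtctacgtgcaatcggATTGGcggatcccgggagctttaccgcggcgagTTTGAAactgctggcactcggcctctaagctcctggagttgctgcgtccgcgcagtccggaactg
Ncaph (chr2:127133905-127134204, minus strand): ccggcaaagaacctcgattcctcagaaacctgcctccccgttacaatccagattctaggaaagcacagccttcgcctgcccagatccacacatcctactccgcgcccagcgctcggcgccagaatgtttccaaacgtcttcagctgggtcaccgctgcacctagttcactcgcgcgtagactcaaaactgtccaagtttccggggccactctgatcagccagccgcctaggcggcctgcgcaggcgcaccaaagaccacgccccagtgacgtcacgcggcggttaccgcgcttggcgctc

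The Mki67 promoter held 3 CCAAT and 2 TTTGAA matches and the Cdk1 promoter 3 and 2, while the Ncaph window held 0 of each. Over the list, 51 promoters of 48 genes had entries, and 74.5% held CCAAT and 43.1% TTTGAA. Of all 32851 promoters of the same length, 37.4% held CCAAT and 17.9% TTTGAA. Both motifs were in 43.1% of the list's promoters and 6.95% of all. A match describes letters only.

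**Figure D4:**
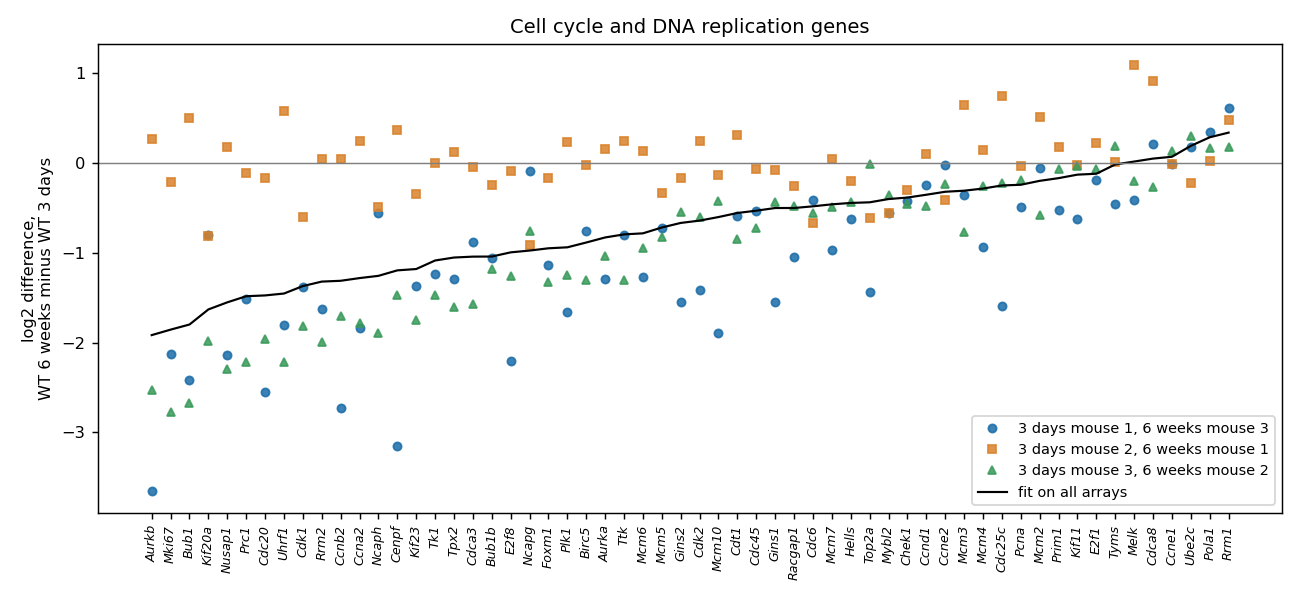
Log2 difference, WT 6 weeks minus WT 3 days (vertical axis), of the 58 measured cell cycle and DNA replication genes, ordered by the fit (line). Circles and triangles (pairs 1 and 3, medians −0.95 and −0.76) lie below 0 for most genes, and squares (pair 2, median −0.01) scatter about 0.

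Myeloid genes did not move as a block. The macrophage and activated myeloid list (37 measured of 40) had 0 calls, with 2 higher and 3 lower at an unadjusted p under 0.05, and its fitted median was 0.00. The pair medians were −0.52, 0.96 and −0.17, so that pair 2 went against the others. The list stood at 1.08 above naive at 3 days and 0.93 at 6 weeks. The 3 days value includes mouse 2, which stood at 0.14 against its naive mouse, beside 2.07 in mouse 1. The list median was −0.40 without 3 days mouse 2, with 6 called lower and 0 higher, where 1.69% of all genes were called lower. Arg1, an arginine-degrading enzyme of wound macrophages, was −3.91, −0.54 and −3.05 in the pairs. Its fit was −2.46 ± 0.49 (limma adjusted p = 0.0647), or 5.51-fold, and −3.31 ± 0.25 without 3 days mouse 2 (limma adjusted p = 2.3e-05). At 6 weeks Arg1 was at −0.05 against naive. Coagulation factor F10, which macrophages also make, was −2.14, −0.20 and −1.80 in the pairs, and without that mouse it fell by 1.91 (limma adjusted p = 0.00237).

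The lectin receptor Clec4n was −2.17 and called without 3 days mouse 2, as were the scavenger receptor Msr1 (−1.77) and Adgre1 (−1.21), an adhesion receptor of mature macrophages. On all mice Clec4n, Msr1 and Adgre1 were −1.46, −0.65 and −0.35. At 6 weeks Msr1 and Adgre1 still stood at 2.15 and 2.06 above naive. Cybb, the catalytic subunit of the phagocyte oxidase, was the other way, 0.90, 1.44 and 0.82 in the pairs (fit 1.06 ± 0.40, limma adjusted p = 0.311), and 0.50 without 3 days mouse 2 (limma adjusted p = 0.567). Neutrophil genes (17 measured of 18) had 0 calls, 3 lower at an unadjusted p under 0.05, and a median of −0.24 (−0.34 without 3 days mouse 2). Chil3, a chitinase-like protein of neutrophils and macrophages, had a wide spread, −5.45, −0.89 and −3.12 in the pairs (fit −2.87 ± 0.90, limma adjusted p = 0.208). Chil3, the cystatin Stfa2 and the collagenase Mmp8 were called without 3 days mouse 2, at −4.00, −1.21 and −1.62. Homeostatic microglia genes (12 measured of 14) had a median of −0.01 and 0 calls, and −0.22 and 0 calls without that mouse.

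Several genes of lipid-laden phagocytes were higher at 6 weeks without passing the threshold. In the lipid handling list (27 measured of 29), 0 were called and 6 were higher and 2 lower at an unadjusted p under 0.05. The median was 0.22, with pair medians of −0.23, 0.90 and −0.04, and −0.07 without 3 days mouse 2, again with 0 calls. Cst7, a cystatin of activated microglia, had pair values of 0.54, 2.17 and 2.11 and a fit of 1.79 ± 0.52 (limma adjusted p = 0.173). Itgax, which encodes CD11c, was −0.21, 1.91 and 1.58 in the pairs. Both genes were called at 6 weeks against naive, at 3.09 and 1.97. Mmp12, the macrophage elastase, missed the threshold narrowly with pair values of 0.92, 1.38 and 2.33 (fit 1.78 ± 0.34, limma adjusted p = 0.0512, and 0.0532 without 3 days mouse 2). It stood at 0.42 above naive at 3 days and 2.20 at 6 weeks. Lysosomal, complement and MHC class II genes had 0 calls and medians of −0.12, −0.01 and 0.13, with pair 2 above the other pairs in each. In the fit without 3 days mouse 2 the medians were −0.23, −0.15 and −0.23, so that of MHC class II turned sign. The lysosomal genes Ctsc (−1.15), Gusb (−1.12) and Grn (−0.92) and the complement gene C4b (−0.78) were then called lower, and 0 MHC class II genes. On all mice Ctsc, Gusb, Grn and C4b were −0.38, −0.47, −0.40 and −0.29, and in pair 2 they were 1.26, 1.18, 0.71 and 0.53. Another Gusb probe had the opposite sign on all mice (0.15).

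Chemokines and their receptors (47 measured of 49) had 1 call, Cxcr6, and 9 higher and 0 lower at an unadjusted p under 0.05. Their median was 0.09, and −0.00 with Cxcr6 and Ccr9 called higher without 3 days mouse 2. Ccr9, a homing receptor of lymphocytes, was 0.85, 0.35 and 0.66 higher in the pairs (limma adjusted p = 0.0673, and 0.0116 without 3 days mouse 2). T and B lymphocyte genes (26 measured of 30) had 1 call, Cd3d, with a list median of 0.04 (−0.02 without 3 days mouse 2, with the same call). Nkg7, of cytotoxic granules, was 0.44, 0.94 and 0.64 in the pairs (limma adjusted p = 0.155). Interferon-stimulated genes (28 measured of 30) had 0 calls in limma, 6 higher and 0 lower at an unadjusted p under 0.05, and a median of 0.24. The pair medians of 0.19, 0.34 and 0.29 had the same sign, and 12 of the 28 were higher in all 3 pairs, where 16.3% of all genes were. The median was 0.08 without 3 days mouse 2, with 0 calls, and it was −0.61 between 6 weeks mouse 1 and 3 days mouse 1, each set against its own naive mouse on arrays of 1 code number. Ifit1, an RNA-binding antiviral protein, was 1.26, 1.84 and 1.38 higher (fit 1.57 ± 0.39, limma adjusted p = 0.116), with 0.02 above naive at 3 days and 1.59 at 6 weeks. The T cell chemokine Cxcl10 varied more, at 2.93, 0.21 and 2.45 in the pairs.

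Genes of cholesterol synthesis had a lower median at 6 weeks than at 3 days in all 3 pairs of mice. Of 28 listed genes 24 were measured, 1 was called lower and 0 higher, and 15 were lower and 0 higher at an unadjusted p under 0.05. The median was −0.42, with pair medians of −0.36, −0.50 and −0.26, and 18 of the 24 were lower in all 3 pairs, where 16% of all genes were. It was −0.30 without 3 days mouse 2, with 2 called lower. Sc5d, a late enzyme of the pathway, was −0.62, −0.65 and −0.53 in the pairs, with a fit of −0.55 ± 0.10 (limma adjusted p = 0.0488). Hmgcs1, at the start of the mevalonate pathway, was −0.34, −1.22 and −0.77, and Idi1, the isopentenyl diphosphate isomerase, −0.73, −1.93 and −0.67. Both had a limma adjusted p of 0.0732 on all mice. Without 3 days mouse 2 Hmgcs1 was −0.63 and called (limma adjusted p = 0.0436), and Idi1 was −0.75, against −1.14 on all mice. Nsdhl, a sterol dehydrogenase, was −0.71, −0.97 and −0.53 (limma adjusted p = 0.0791).

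Against naive cord, the cholesterol list was at −0.03 at 3 days and −0.40 at 6 weeks, so its median lay below naive at 6 weeks. Sc5d, Hmgcs1, Idi1 and Nsdhl were called lower at 6 weeks than in naive cord (4 of 24, where 0.0922% of all probes were), at −0.48, −0.88, −1.19 and −0.75. Myelin and mature oligodendrocyte genes (27 measured of 30) had 0 calls, with 7 lower and 0 higher at an unadjusted p under 0.05, a median of −0.18 and pair medians of −0.16, −0.31 and −0.14. The fit without 3 days mouse 2 gave a median of −0.11 and 1 call, the link protein gene Hapln2 (−0.49). Anln, an actin-binding protein that myelinating cells express, was −0.65, −0.67 and −0.52 in the pairs (fit −0.60 ± 0.13, limma adjusted p = 0.0732). Fa2h, which makes the hydroxylated fatty acids of myelin lipid, was −0.29, −0.80 and −0.46 and lay at −0.76 against naive at 6 weeks. Oligodendrocyte precursor genes (17 measured of 18) had a median of −0.06 and 0 calls in both fits.

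Of astrocyte genes, the reactive list (28 measured of 29) had 0 calls, 2 higher and 2 lower at an unadjusted p under 0.05, and a median of −0.14. The pair medians were −0.72, 0.70 and −0.33. Pair 2 again had the opposite sign. Without 3 days mouse 2 the median was −0.41, with 6 called lower, where 1.69% of all genes were called lower. Among those 6 was Gfap, the astrocyte intermediate filament, at −1.33 there (limma adjusted p = 0.0105) and −0.74 on all mice (limma adjusted p = 0.457), with pair values of −0.96, 1.03 and −1.63. This probe was the lowest of 12 for Gfap, which ran from −0.74 to −0.19 on all mice, with −0.32 for their mean. The list was at 0.77 above naive at 3 days and 0.80 at 6 weeks. The 3 days value includes mouse 2, which stood at −0.13 against its naive mouse, beside 1.64 in mouse 1. Astrocyte identity genes (19 measured of 20) had a median of −0.03 in both fits, with 0 calls on all mice and 1, Aldh1l1, without 3 days mouse 2. Neuronal lists were near 0. Medians were 0.06 for ion channels, −0.01 for transmitter receptors and transporters, −0.03 for synaptic vesicle genes and −0.05 for neurofilament and pan-neuronal genes, each with 0 calls with and without 3 days mouse 2. Without it these medians were 0.08, 0.09, 0.01 and 0.04.

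Vessel and matrix genes gave few calls. Endothelial genes (29 measured of 29) had 0 calls and 8 lower and 0 higher at an unadjusted p under 0.05. Their median was −0.22, with pair medians of −0.47, −0.03 and −0.39, and 11 were lower in all 3 pairs, where 16% of all genes were. Without 3 days mouse 2 it was −0.33, with 1 call, the lipid transporter Mfsd2a (−0.77). Slco1c1, a thyroid hormone transporter of the blood-brain barrier, was −0.57, −0.62 and −0.72 (fit −0.63 ± 0.15, limma adjusted p = 0.0899), and the tight junction gene Cldn5 −1.17, −0.25 and −0.99. Metalloproteinases and TIMPs (20 measured of 21) had 1 call, Adamts1, a versican-cleaving protease, at −0.88, −0.30 and −0.58 in the pairs (fit −0.55 ± 0.10, limma adjusted p = 0.0488). The list median was −0.30, and −0.28 in the fit without 3 days mouse 2. Adam8 (−1.80), Mmp8 (−1.62) and Mmp19 (−1.24) were called lower there beside Adamts1. On all mice Adam8, Mmp8 and Mmp19 were −1.14, −1.13 and −0.70. Collagen and fibrotic matrix genes (35 measured of 37) had 0 calls, 5 higher and 4 lower at an unadjusted p under 0.05, and a median of −0.04 (−0.09 without that mouse, with Postn called). Postn, periostin of scar matrix, was 0.36, 1.98 and 1.49 higher (fit 1.38 ± 0.26, limma adjusted p = 0.0509, and 0.0292 without 3 days mouse 2), but another Postn probe was −0.56. Meningeal fibroblast genes (22 measured of 22) had the highest median, 0.30, with 0 calls and pair medians of −0.10, 0.46 and 0.37. When that mouse was left out its median was 0.34, with the growth factor Igf2 called higher (1.02) and the binding protein Igfbp2 called lower (−1.76).

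Ependymal cell genes (13 measured of 14), markers of the ciliated lining of the central canal, had 0 calls, 5 higher and 0 lower at an unadjusted p under 0.05, and a median of 0.23. The pair medians were 0.45, 0.27 and 0.23, and 8 of the 13 were higher in all 3 pairs, where 16.3% of all genes were. The median was 0.18 with 0 calls in the fit without 3 days mouse 2. Cfap126, a basal body protein, was 0.56, 0.88 and 0.96 (fit 0.81 ± 0.17, limma adjusted p = 0.0705), and Enkur, of motile cilia, 0.73, 0.79 and 0.76. The called genes Cfap161 and Ecrg4 moved in the same direction but are not on this list. Markers of other cells that could enter the segment were near 0. Medians were 0.05 for Schwann cell genes (14 measured of 16), 0.11 for skeletal muscle (14 of 14) and −0.04 for erythrocytes and platelets (10 of 14), each with 0 calls. In the fit without 3 days mouse 2 they were 0.20, 0.03 and −0.01, and the globin gene Hbb-bt was called higher (0.83). The NF-κB subunits, inhibitors and Toll-like receptors (28 measured of 31), the pathway that the transgene blocks in the other genotype, had 0 calls in WT mice, 4 higher and 1 lower at an unadjusted p under 0.05, and a median of 0.01. Without 3 days mouse 2 the median was −0.15 and Bcl3, an IκB family member, was called lower (−1.33, against −0.53 on all mice). Pericyte genes (14 of 14) had a median of −0.19, immediate early genes (27 of 28) −0.20, interleukins and TNF family genes (40 of 44) −0.04, and oxidative phosphorylation genes (27 of 28) 0.01, each with 0 calls. These medians were −0.38, −0.39, −0.22 and 0.01 without that mouse. Then called lower were the mural cell genes Tagln (−1.08) and Notch3 (−0.92), Socs3 (−1.34) and Fos (−0.80) of the immediate early list, and the receptors Tnfrsf12a (−1.17) and Tnfrsf1a (−0.95). On all mice these genes were at −0.48, −0.57, −0.52, −0.41, −0.78 and −0.46 in that order, and none was called. In pair 2 all but Tnfrsf12a (−0.14) were positive. The Tnfrsf1a probe was the lowest of 10, which ran from −0.46 to −0.01 on all mice.

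Over the 37 lists, 847 of 922 genes were measured, and 4 members were called, Cxcr6, Cd3d, Sc5d and Adamts1, in 4 lists. The 3 pair medians had the same sign in 9 lists, 6 lower and 3 higher at 6 weeks. In 18 lists pair 2 had the sign opposite to both other pairs. In the fit that leaves out 3 days mouse 2, 22 lists held a called member. Of all genes, 403 were then called (81 higher, or 0.424%, and 322 lower, or 1.69%), and 220 of these had the opposite sign in pair 2.

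**Figure D5:**
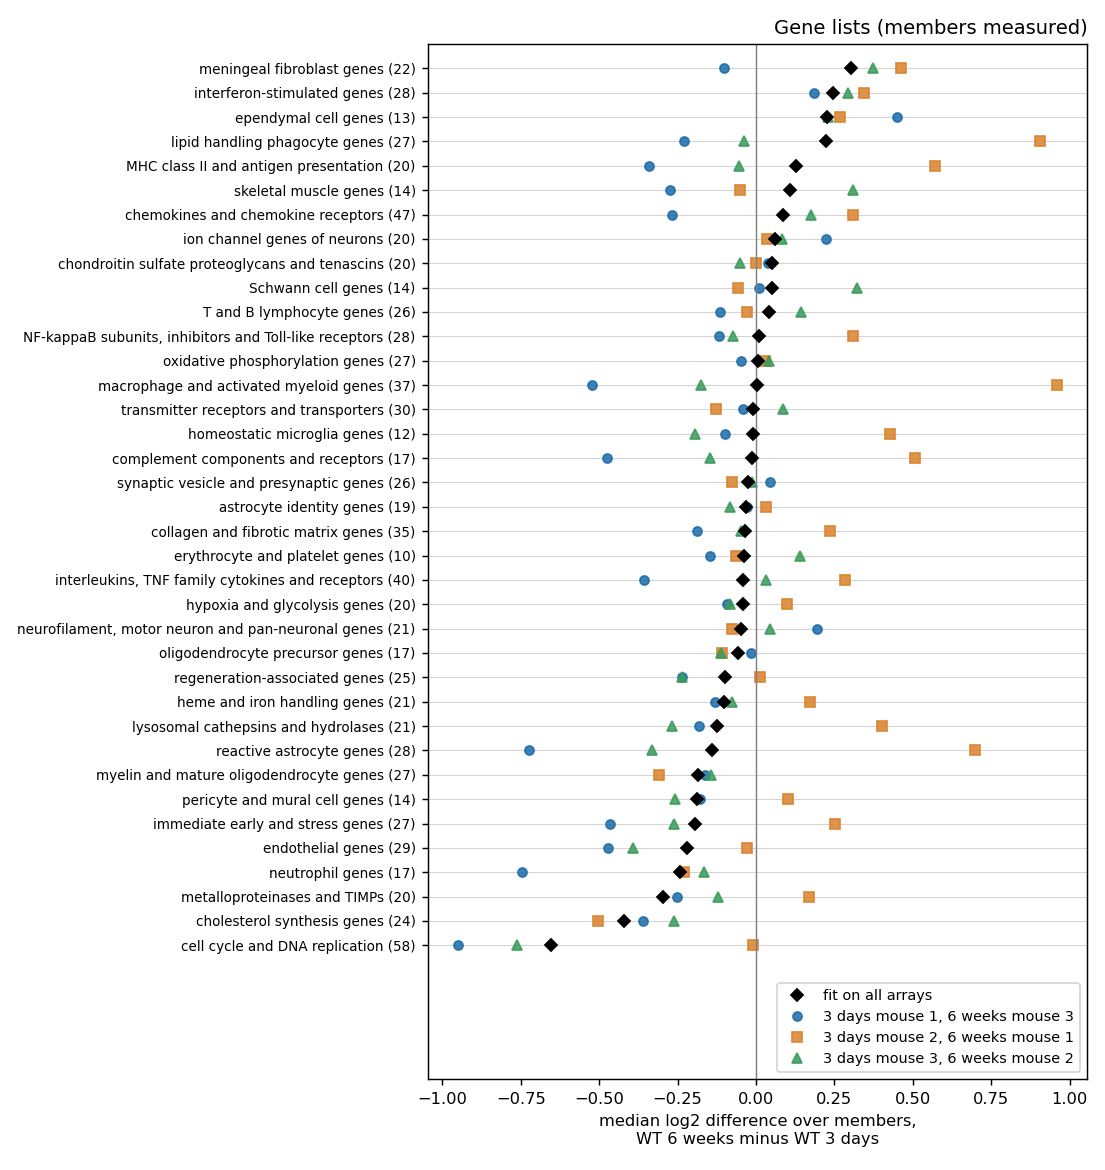
Median log2 difference over list members, WT 6 weeks minus WT 3 days (horizontal axis), for 37 gene lists ordered by the fit (diamonds), with the number of members measured. Circles, squares and triangles are the 3 connected pairs, and they fall on the same side of 0 in 9 lists, among them cell cycle (−0.65) and cholesterol synthesis (−0.42) at the bottom and interferon-stimulated and ependymal genes near the top.

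The change from 3 days to 6 weeks was compared with that in IκBα-dn mice through the difference of the 2 changes in the same fit. It was called at 1835 probes (4.23%), 555 higher (1.28%) and 1280 lower (2.95%) in IκBα-dn mice (2666 probes without WT 3 days mouse 2, 186 without WT 6 weeks mouse 2, 245 without WT 3 days mouse 3 and 739 without WT 6 weeks mouse 1). All 24 named WT genes had the same sign in IκBα-dn mice, and 3 of them differed in size. Mamdc2 was 2.45 higher at 6 weeks in IκBα-dn mice against 1.38 in WT (difference 1.07, limma adjusted p = 0.0127). Tatdn2 was −0.45 against −1.36 (difference 0.92, limma adjusted p = 0.0207), and Ywhab −1.28 against −0.65 (difference −0.63, limma adjusted p = 0.0106). In the cell cycle list the medians were −0.63 in IκBα-dn and −0.65 in WT, and 0 members had a called difference. Members of some neuronal lists did differ. Of 30 transmitter receptors and transporters 10 had a called difference in the lower direction and 0 in the higher, where 2.95% of probes were lower. Their medians were −0.54 in IκBα-dn and −0.01 in WT. Of 26 synaptic vesicle genes 8 were lower by this test. Of 20 ion channel genes 0 had a called difference, and of 21 neurofilament and pan-neuronal genes 1 was higher and 2 lower. Called differences were not limited to neuronal lists. Pericyte genes had 4 of 14 higher, endothelial genes 4 of 29 higher, and regeneration-associated genes 1 higher and 4 lower of 25. Cadps, a vesicle priming protein, was −1.85 in IκBα-dn and −0.39 in WT mice (limma adjusted p of the difference = 0.00241), and −0.21 in WT mice without 3 days mouse 2.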

How the data were processed

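According to the methods, the authors hybridised RNA to Agilent Whole Mouse Genome arrays, scanned them with a GenePix scanner, kept features by spot quality, and normalized by lowess on each array and by quantiles across arrays in limma. The deposited values are log2 ratios of 43379 probes with 0 missing values. Their direction is not given in the sources used here and was taken as Cy5 over Cy3, as the array of injured over naive cord bears out. No spot intensities were analysed here. The number of arrays limits the precision.

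Differences were fitted with limma 3.58.1 in R 4.3.3 on 21 arrays (each ratio modelled as Cy5 group minus Cy3 group, plus 1 dye term). Arrays that share a mouse were given a correlation through 1 share of variance for all probes (0.43), and variances were moderated (residual degrees of freedom 13, prior 3.24). Benjamini-Hochberg adjustment ran over all probes. The dye term itself was called at 58.3% of probes. The model was tested on simulated data.

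By GEO's platform annotation, 33653 probes have 1 gene symbol, 56 have several and 9670 have none. Of 19087 genes, 8343 have several probes and are represented by the one numbered lowest. Named genes are the 12 largest called increases and 12 largest called decreases with the same sign in all 3 connected pairs, and, per list, up to 4 members by smallest p. Genes named from the fit without 3 days mouse 2 were chosen after their values were seen. The members and lists were chosen with earlier results of these data known. Same-numbered mice of the 2 groups are not known to be paired. Where leaving out a mouse leaves few in a group, the others are assumed to vary alike. Promoters came from RefSeq. Plots used matplotlib 3.10.9 (Python 3.11.15).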

Additional observations from a re-analysis of the deposited data

Results flagged for a closer look

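The change from 3 days to 6 weeks differed between IκBα-dn and WT mice at 1835 probes, by a limma test of the difference itself. Of the named WT genes, Mamdc2 stood out because its increase was 1.07 larger on the log2 scale in IκBα-dn mice, Tatdn2 because its decrease was smaller there (difference 0.92), and Ywhab because its decrease was larger (difference −0.63). Each WT value rests on 3 mice a group.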

How the results depend on the processing

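All 24 named genes kept their direction in each of 20 alternatives, and in 174 of 480 values they also stayed called. The 37 list medians moved by more than the SD of the 3 pair medians in 35 of 740 values. Where pair 2 stood apart that SD was wide, so the count is no measure of stability. Without 3 days mouse 2 the macrophage median went from 0.00 to −0.40, within its SD of 0.78. That of MHC class II went from 0.13 to −0.23, within 0.47. The 48 probes called became 154 with arrays taken as independent, 9 when the dye term was dropped, 6 when each number in the array codes had its own, 3 with the disputed array kept as 3 days, 110 with it kept as 3 weeks, and 2 with arrays scaled to the same spread. The count was 0 on arrays that hold only 1 genotype, on WT arrays only, without the array that holds both groups, on the 3 connected pairs alone, at an adjusted p under 0.01, and at an adjusted p under 0.001 with a fold over 2. At an unadjusted p under 0.05 the first 4 of these gave 1611, 1080, 4662 and 3427 probes. The first 2 used the correlation estimated on all arrays. Leaving out each mouse in turn gave 0 to 828 probes. With a replicate block the count was 0 (4201 at an unadjusted p under 0.05). Deviations of same-numbered mice correlated at −0.35, 0.21 and −0.12, and not every mouse correlated best with its own number. With 3 mice a group, these values cannot decide whether the numbers pair the mice. The 1835 probes whose change differed between genotypes became 3806 with independent arrays, 678 when the dye term was dropped, 611 when each code number had its own, 0 on arrays that hold only 1 genotype, 775 with scaled arrays, 426 at an adjusted p under 0.01 and 3 at the strictest threshold, and from 186 to 2666 with each WT mouse left out. The causes of these shifts were not tested. No scaling moved the median of all probes by over 0.1. Within 1 array code number (6 weeks mouse 1 and 3 days mouse 1, each against its naive mouse) the medians were −1.35 for cell cycle, −0.45 for cholesterol synthesis and −0.61 for interferon-stimulated genes, the last opposite in sign to the fit. For ependymal genes the median there was −0.05, also opposite in sign to the fit, beside −0.13 over all genes. With ratios alone, the background correction and the filter on dim spots could not be varied.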

Other observations

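A further 12 called probes belong to 11 genes whose lowest-numbered probe was not called, 2 higher and 10 lower at 6 weeks, and are named here after their values were seen. Srxn1, which repairs oxidised peroxiredoxins, was called at 2 of its 3 probes (−0.82 and −0.77). Aspm, of the mitotic spindle, was −1.29 at the called probe, with pair values of −1.57, −0.31 and −1.76, while another of its probes was 0.27. The calcium pump Atp2a2 was −0.88 and moesin (Msn), which joins actin to the membrane, −0.84. Of 4 Atp2a2 probes 1 was called, and another was 0.05. Mia, a secreted protein, was 0.94 at the called probe and Igsf1, a membrane protein of the immunoglobulin family, 0.96, but another probe of Igsf1 was −0.86.

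The 15 largest decreases without 3 days mouse 2 held genes outside the lists, again chosen after their values were seen. Bst1, an ectoenzyme of myeloid and stromal cells, was −2.24 ± 0.29 (SE; limma adjusted p = 0.00123), Ska1 and Sgo1, of the kinetochore and centromere, −2.21 and −2.34, and Pbk, a mitotic kinase, −2.55. In pair 2 they were −0.05, −0.29, 0.33 and 1.41, and on all mice −1.57, −1.43, −1.45 and −1.29. The increases held Wfdc18 (1.29), Pfdn5, a prefoldin subunit (1.27), Txlnb (1.25) and Etnppl, a phospholyase of astrocytes (limma adjusted p = 0.00102). On all mice Wfdc18, Pfdn5 and Txlnb were 1.03, 0.91 and 0.91, and in pair 2 they were 0.23, −0.14 and 0.03. Etnppl differed by 0.88 on all mice and was −0.69 against naive at 3 days and 0.18 at 6 weeks.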
